A study of Mus musculus with 6 samples.

Results

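The genes described here encode 10 selenoproteins: the glutathione peroxidases Gpx1, Gpx3 and Gpx4, the secreted selenium carrier Selenop, the thioredoxin reductases Txnrd1, Txnrd2 and Txnrd3, the small thioredoxin-fold proteins Selenow and Selenoh, and the methionine sulfoxide reductase Msrb1. They were chosen by gene symbol from a table of 16140 mRNA genes, and all 10 were found there and had enough counts to be tested among 12173 genes. They were measured in the livers of 3 knockout and 3 control samples of mice on a normal diet, by bulk RNA-seq of poly(A)-selected RNA. The knockouts carried floxed alleles of Selenoo, labelled Selofl/fl, together with Alb-Cre, a Cre recombinase under the albumin promoter, which is active in hepatocytes. The controls carried the same floxed alleles without Cre and had no treatment. Other liver cells keep the gene in the knockouts, and an effect of Cre itself and the loss of Selenoo cannot be told apart. Whether the libraries came from separate mice is not stated in the labels used here, nor are age and sex. The p-values therefore set group differences only against the spread between these samples. In bulk tissue, fewer cells of a type and less RNA per cell cannot be told apart.

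Selenoproteins contain selenocysteine, the selenium analogue of cysteine, which is inserted at a UGA codon that would otherwise stop translation. Insertion needs a stem-loop in the 3′ untranslated region of the mRNA and a dedicated transfer RNA, and under selenium shortage the UGA can be read as a premature stop, which exposes some of these mRNAs, Gpx1 among them, to nonsense-mediated decay. The liver makes most of the selenoprotein P in plasma, which carries selenium to other organs, and uses glutathione peroxidases and thioredoxin reductases to remove peroxides and to keep protein thiols reduced. Selenoo encodes SelO, a mitochondrial selenoprotein with a protein kinase fold that attaches AMP to other proteins.

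The selenocysteine codon is what the 10 mRNAs share, and it is shown here in its coding sequence because its place differs between the enzyme families. GENCODE M21 annotates 19 such codons in the 10 genes on GRCm38. Each line gives 18 bases before the codon and up to 18 after it, 5′ to 3′ on the coding strand, with the selenocysteine codon in capitals. In the lines that end early the last 3 bases are the stop codon.
Gpx1, codon 47: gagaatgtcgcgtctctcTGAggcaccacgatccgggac
Gpx3, codon 73: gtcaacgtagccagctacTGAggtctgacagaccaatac
Gpx4, codon 73: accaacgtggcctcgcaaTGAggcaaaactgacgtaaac
Selenop, codon 59: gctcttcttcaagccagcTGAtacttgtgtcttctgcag
Selenop, codon 377: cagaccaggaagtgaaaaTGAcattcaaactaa
Selenow, codon 13: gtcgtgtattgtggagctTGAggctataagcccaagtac
Selenoh, codon 38: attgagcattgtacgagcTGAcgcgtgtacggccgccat
Msrb1, codon 95: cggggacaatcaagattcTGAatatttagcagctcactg
Txnrd1, codon 498: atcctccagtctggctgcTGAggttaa
Txnrd2, codon 526: cctactgtgactggttgcTGAggctaa
Txnrd3, codon 614: attactcagaaaggctgcTGAggctag

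In the 3 thioredoxin reductases the codon was the last but 1 before the stop, followed by a glycine codon and preceded by a cysteine codon, the C-terminal pair that passes electrons to thioredoxin. In the glutathione peroxidases it stood within the first 73 codons, also followed by a glycine codon. Selenow and Selenoh had a cysteine codon 3 places before it, the redox motif of this fold. Selenop had 10 selenocysteine codons, 1 at codon 59, in the redox-active N-terminal part, and 9 between codons 259 and 377, in the selenium-rich tail. The codon stood in the last exon in Txnrd1, Txnrd2 and Txnrd3, and before the last exon junction in the other 7, counting the first codon of Selenop. Its distance to the last junction was 105 bases in Gpx1, 240 in Gpx3, 342 in Gpx4, 357 in Selenop, 243 in Selenow, 136 in Selenoh and 34 in Msrb1.

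**Figure D1:**
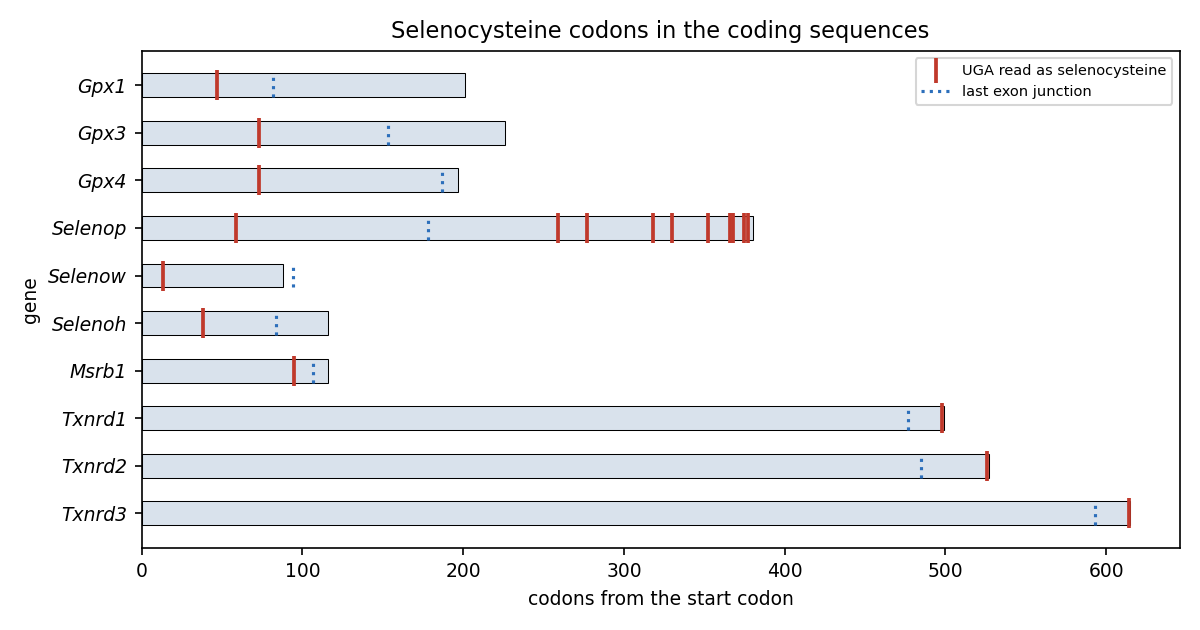
Positions of selenocysteine codons (red ticks) along the coding sequence of each gene, in codons from the start codon, with the last exon junction as a dotted line; bars run to the last codon before the stop. The thioredoxin reductases carry the codon at the very end, in the last exon, Selenop carries 10, and the other 6 genes carry 1 upstream of the last junction.

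Selenoo, the targeted gene, had 6.29, 9.31 and 7.67 CPM in the knockout libraries and 94.8, 84.2 and 96.0 CPM in the controls, so the libraries matched their labels. Its log2 fold change was -3.56 ± 0.17 (SE, edgeR adjusted p = 4.64e-05), with 8.46% of the control CPM left. Estimated counts summed to 15550287 to 18680196 per library. Across 11944 genes, deviations from the mean followed transcript length with a Spearman rho of 0.09 to 0.27 in the knockouts, and of -0.29 and -0.22 in control replicates 1 and 2 and 0.27 in control replicate 3. Control replicate 1 held the lowest TPM of 49.5% of tested genes, and the lowest CPM of 28.0%, so single genes and marker sums are compared between libraries in CPM scaled by TMM factors. TPM, which accounts for length, is used for levels, sums and ratios of the members within a library.

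The 10 mRNAs spanned more than 3 orders of magnitude and stood in the same order of mean TPM in both groups. Selenop was the most abundant, with 5474 ± 447 TPM in knockout livers and 4686 ± 1447 TPM in control livers (SD, n = 3 each), at place 26 and place 24 of all genes in the table. Gpx1, the main cytosolic peroxidase, followed with 2121 ± 173 TPM in the knockouts and 1521 ± 320 TPM in the controls. Gpx4, the peroxidase that reduces lipid hydroperoxides in membranes, had 864 ± 68.9 TPM in the knockouts and 925 ± 93.6 TPM in the controls. Msrb1, which repairs oxidised methionine, had 695 ± 13.8 TPM in the knockouts and 618 ± 97.1 TPM in the controls. Selenow stood at 175 ± 4.66 TPM in the knockouts and 201 ± 35.5 TPM in the controls. Each of these 5 lay above the next in every library of its group.

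The reductases and the remaining members were far lower. Cytosolic Txnrd1 had 26.7 ± 4.33 TPM in the knockouts and 25.6 ± 6.56 TPM in the controls, and mitochondrial Txnrd2 had 18.6 ± 2.65 TPM in the knockouts and 23.7 ± 4.35 TPM in the controls. Their ranges overlapped in the controls and not in the knockouts. Selenoh, a nucleolar protein, had 16.9 ± 1.40 TPM in the knockouts, where it overlapped Txnrd2, and 13.8 ± 1.45 TPM in the controls, where it overlapped Gpx3. Gpx3, the plasma peroxidase that is made mainly in the kidney, had 7.70 ± 1.35 TPM in the knockouts and 13.7 ± 5.36 TPM in the controls. Txnrd3, which is known from testis, was lowest at 2.74 ± 0.41 TPM in the knockouts and 2.57 ± 0.47 TPM in the controls.

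**Figure D2:**
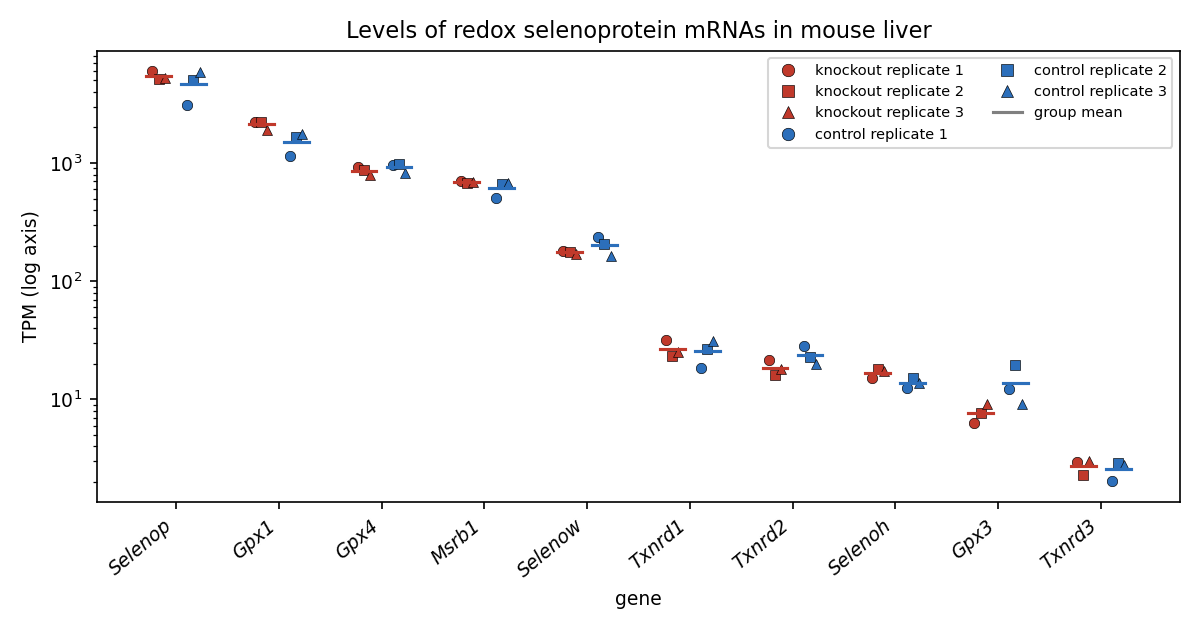
TPM of each gene (log axis) in every library, knockouts in red left of controls in blue, with bars at the group means. Selenop and Gpx1 lead in both groups and Txnrd3 is lowest, at 2.03 to 3.01 TPM.

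These genes held most of the selenoprotein mRNA of the liver. Their summed level was 10098, 9193 and 8913 TPM in the knockouts and 6043, 8616 and 9431 TPM in the controls, with control replicate 1 below all other libraries, and the groups overlapped. In CPM, which does not account for length, it was 10358, 9994 and 9994 in the knockouts and 7254, 8853 and 9630 in the controls, without overlap; Selenop and Gpx1 make up most of it, and it was not tested. The members' TPM was 91.9% to 92.3% of that of the 22 selenoprotein genes in the table in knockouts and 90.0% to 91.6% in controls. The 22 include the targeted Selenoo, at 3.81 to 5.18 TPM in knockouts and 45.4 to 60.1 TPM in controls. Its loss alone raises this share in the knockouts, so the share is not compared between the groups. Selenop alone made up 59.3%, 56.2% and 59.1% of the members' TPM in the knockouts and 51.4%, 58.2% and 63.0% in the controls. Because each Selenop mRNA has 10 selenocysteine codons, it held 91.4% to 92.4% of all selenocysteine codons, weighted by TPM over the 22 genes, in the knockouts and 89.6% to 93.2% in the controls. This is a share of codons in mRNA and does not show how often they were translated.

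Between knockout and control livers, 0 of the 10 members had an adjusted p under 0.05 by edgeR (quasi-likelihood F test), where 1.49% of all 12173 tested genes did. At an unadjusted p under 0.05 there were 2, Gpx1 and Gpx3, against 18.5% of all tested genes. Groups did not overlap in CPM for Gpx1 and Msrb1, 2 of 10, against 25.2% of all tested genes. In TPM they did not overlap for 4 of 10, Gpx1, Msrb1 and Selenoh (higher) and Gpx3 (lower), against 18.6% of all tested genes. DESeq2 called 1 of them, Gpx1, against 5.26% of the genes for which it gave an adjusted p. The authors' deposited table also listed 1 with a q-value under 0.05, again Gpx1, against 3.47% of its genes. Each of these shares of 10 lies on a count of 4 or fewer. Log2 fold changes were positive in 6 and negative in 4 members, with a median of 0.09 beside -0.02 over all tested genes.

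**Figure D3:**
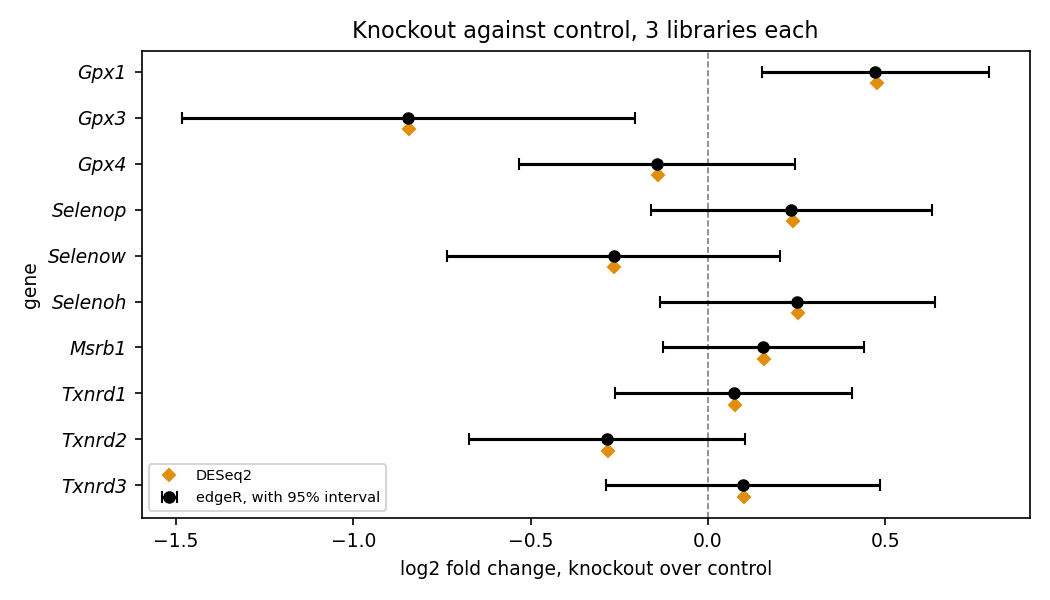
Log2 fold change of each gene, knockout over control, from edgeR with its 95% interval (black, 3 libraries per group) and from DESeq2 (orange). The intervals of Gpx1 and Gpx3 leave out 0 before adjustment for multiple tests, and the other 8 include it.

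Among the glutathione peroxidases, Gpx1 had the smallest p of the 10 members. The gene (chr9:108338903-108340343, plus strand, GRCm38) has 2 exons, with the selenocysteine codon in exon 1 at chr9:108339451-108339453. Gpx1 had 1333, 1447 and 1262 CPM in the knockouts and 883, 1010 and 1020 CPM in the controls. Every knockout library was above every control library. The means of 1347 ± 93.8 CPM in knockouts and 971 ± 76.5 CPM in controls (SD, n = 3 each) gave a log2 fold change of 0.47 ± 0.14 (SE), or 1.39-fold with a 95% interval of 1.11 to 1.73. The adjusted p was 0.128 in edgeR, and unadjusted it was 0.00866. DESeq2 gave 0.48 with an adjusted p of 0.0147, and the authors' deposited table gave 0.48 with a q-value of 0.0201. Over all alternatives the adjusted p of Gpx1 ran from 0.0147 to 0.402, so the call rests on the tool. Red blood cells also express Gpx1, and the summed CPM of 5 of 5 red blood cell markers was 111, 1265 and 405 in the knockouts and 654, 145 and 660 in the controls. The groups overlapped in this sum. All 5 markers had positive log2 fold changes (5822 of all 12173 tested genes did), with a median of 0.31 and 0 at an unadjusted p under 0.05. The part of red blood cells in the Gpx1 values was not tested.

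Gpx3 was lower in each knockout library than in 2 of 3 control libraries. It had 6.13, 8.06 and 9.55 CPM in the knockouts and 14.9, 19.2 and 8.56 CPM in the controls. Control replicate 3 lay below knockout replicate 3, so the groups overlapped in CPM. In TPM they narrowly did not, with 9.05 in knockout replicate 3 and 9.18 in control replicate 3. The means were 7.91 ± 1.72 CPM in knockouts and 14.2 ± 5.34 CPM in controls (SD, n = 3 each), and the log2 fold change was -0.84 ± 0.28 (SE, 95% interval -1.48 to -0.21, edgeR adjusted p = 0.164). Without control replicate 3 it was -1.11 with an adjusted p of 0.0243, in a fit that called 668 genes in place of 181. Without control replicate 2 it was -0.56 with an adjusted p of 0.420. Over all alternatives the adjusted p of Gpx3 ran from 0.0243 to 0.420. The counts of 114 to 371 per library carry a counting error of 5.19% to 9.37%, well under the spread of 37.6% among the controls.

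Gpx4, whose loss leads to the lipid-peroxide cell death called ferroptosis, had 382, 395 and 360 CPM in the knockouts and 509, 416 and 330 CPM in the controls. The controls lay on both sides of the knockouts. Its log2 fold change was -0.14 ± 0.17 (SE, 95% interval -0.53 to 0.25, edgeR adjusted p = 0.683), and it was 0.023 without control replicate 1 and 0.023 with the length and GC trend removed. RefSeq lists processed pseudogenes of Gpx4 (Gpx4-ps1 and Gpx4-ps2), and the counting may divide reads among such copies. The ratio of Gpx1 to Gpx4 within a library, looked at after the values were seen, was 2.40, 2.53 and 2.43 in the knockouts and 1.19, 1.67 and 2.14 in the controls. These mRNAs are close in length, at 1072 and 995 bases, and the ratio was higher in each knockout than in any control. It was not tested.

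Selenop, the selenium carrier, is also the gene with the most reads of the 10. It had 8085, 7595 and 7796 CPM in the knockouts and 5305, 6871 and 7762 CPM in the controls. The knockouts were tightly grouped, and control replicate 3 lay among them. The means were 7825 ± 247 CPM in knockouts and 6646 ± 1244 CPM in controls (SD, n = 3 each), with a log2 fold change of 0.24 ± 0.18 (SE, 95% interval -0.16 to 0.63, edgeR adjusted p = 0.491). Counting error was at most 0.356% per library, well under the spread of 18.7% among the controls. Ccdc152, which overlaps Selenop on the opposite strand, had at most 5 counts in any library.

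Among the thioredoxin reductases none had groups that stood apart. Txnrd1, which reduces cytosolic thioredoxin, had 75.8, 60.9 and 66.5 CPM in the knockouts and 55.2, 65.0 and 72.9 CPM in the controls, a log2 fold change of 0.07 ± 0.15 (SE, 95% interval -0.26 to 0.41, edgeR adjusted p = 0.814). Txnrd2, its mitochondrial counterpart, had 26.8, 21.8 and 24.3 CPM in the knockouts and 36.8, 28.1 and 24.0 CPM in the controls, a log2 fold change of -0.28 ± 0.17 (95% interval -0.67 to 0.10, adjusted p = 0.404). In both genes the control range took in at least 1 knockout library, and control replicate 1 was an extreme, lowest for Txnrd1 and highest for Txnrd2. Txnrd3, with only 73 to 114 counts per library, had 5.75, 4.86 and 6.48 CPM in the knockouts and 4.90, 5.74 and 5.29 CPM in the controls, with a log2 fold change of 0.10 ± 0.17 (95% interval -0.29 to 0.48, adjusted p = 0.780). The sign of Txnrd1 turned without control replicate 1 (-0.025) and without knockout replicate 1 (-0.014).

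The ratio of Txnrd1 to Txnrd2 in TPM, again looked at after the values were seen, was 1.48, 1.44 and 1.40 in the knockouts and 0.65, 1.17 and 1.58 in the controls. It was nearly constant among knockouts and spread widely among controls. The same held for Msrb1 over Selenow, at 3.96, 3.86 and 4.07 in the knockouts and 2.16, 3.26 and 4.15 in the controls. These pairs differ in length, at 3622 and 2874 bases for Txnrd1 and Txnrd2 and 1211 and 736 for Msrb1 and Selenow. The part of the libraries' length trends in these ratios was not tested.

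Msrb1, which reduces methionine-R-sulfoxide, had 377, 390 and 400 CPM in the knockouts and 338, 362 and 348 CPM in the controls. The groups did not overlap, and the means were 389 ± 11.5 CPM in knockouts and 349 ± 12.1 CPM in controls (SD, n = 3 each). Its log2 fold change was 0.16 ± 0.13 (SE, 95% interval -0.13 to 0.44, edgeR adjusted p = 0.527). The variance in edgeR borrows from all genes, so this interval is not set by the SDs shown alone. Selenow, a small redox protein best known from muscle, had 61.1, 65.4 and 63.5 CPM in the knockouts and 103, 71.5 and 54.5 CPM in the controls, a log2 fold change of -0.27 ± 0.21 (95% interval -0.73 to 0.20, adjusted p = 0.513). The knockouts lay within the control range, and without control replicate 1 the value was 0.0086. Selenoh had 4.94, 6.29 and 6.14 CPM in the knockouts and 5.17, 5.06 and 4.36 CPM in the controls, a log2 fold change of 0.25 ± 0.17 (95% interval -0.13 to 0.64, adjusted p = 0.452). Only knockout replicate 1 lay among the controls in CPM, and the 77 to 110 counts behind each Selenoh value carry a counting error of 9.53% to 11.4%.

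**Figure D4:**
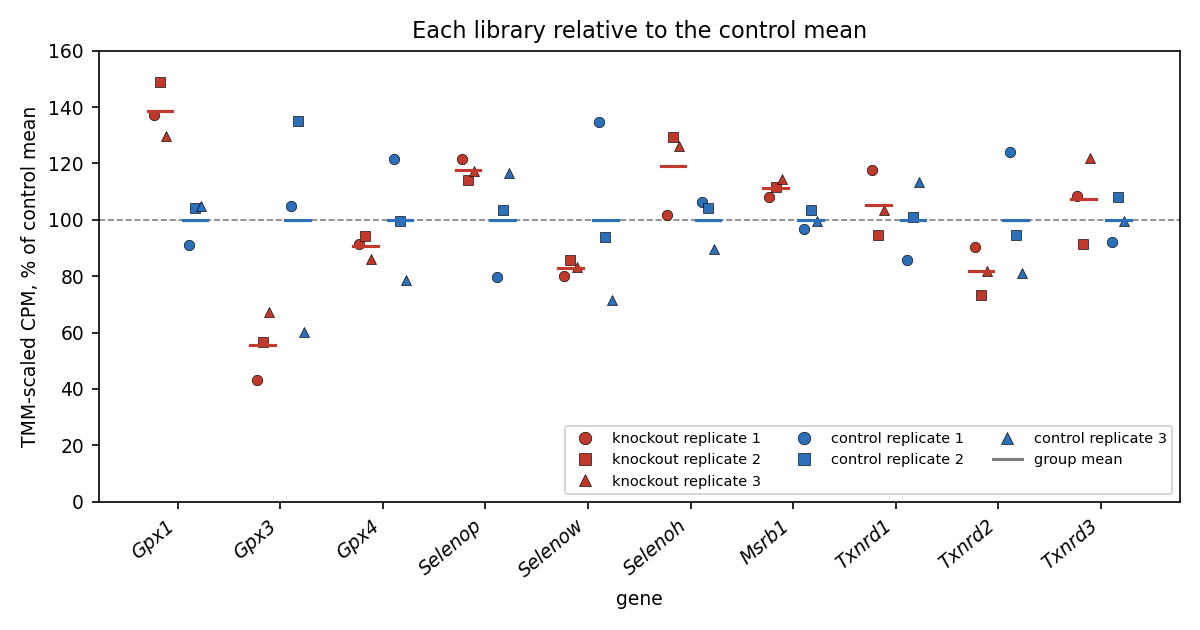
TMM-scaled CPM of each gene in every library as a percentage of the control mean, knockouts in red left of controls in blue, with bars at the group means. The 3 knockouts of Gpx1 lie above all controls, and control replicate 1 is the highest library for Gpx4, Selenow and Txnrd2 and the lowest for Gpx1 and Selenop.

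Gpx1, Selenow, Selenoh and Msrb1 are known as mRNAs that fall early in the liver of selenium-deficient rodents. Here 0 of these 4 passed the test in edgeR (1.49% of all tested genes), 1 had an unadjusted p under 0.05 (Gpx1, against 18.5%) and DESeq2 called that 1 (against 5.26%). Their median log2 fold change was 0.20, with 3 positive and 1 negative. Split by gene structure, the 3 reductases with the codon in the last exon had log2 fold changes of -0.28 to 0.10, and the 7 members with a codon before the last junction had values of -0.84 to 0.47. The second range contains the first.

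In most members and most tested genes, CPM varied less among the 3 knockout libraries than among the 3 control libraries. The coefficient of variation in CPM was smaller among the knockouts in 8 of 10 members, with a median of 8.66% in knockouts and 16.3% in controls. The same held for 70.3% of all tested genes, whose medians were 10.3% in knockouts and 17.1% in controls. In Selenop it was 3.15% among knockouts and 18.7% among controls, in Selenow 3.39% among knockouts and 32.1% among controls, and in Gpx4 4.68% among knockouts and 21.4% among controls. Selenoh and Txnrd3, both with few counts, were the exceptions. Control replicate 1 alone held the lowest CPM of 28.0% and the highest of 27.3% of tested genes. The controls also followed transcript length in opposed directions (Spearman rho -0.29, -0.22 and 0.27 in control replicates 1, 2 and 3). The part of these in the spread was not tested.

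The genes most like Gpx1 over the 6 libraries were named by the smallest root mean squared difference in log2 CPM, each gene centred on its own mean, among 7582 genes. They were St5 (0.05), Amacr (0.05), an enzyme of branched fatty acid and bile acid metabolism, Mettl7a1 (0.05), Grsf1 (0.06), a mitochondrial RNA-binding protein, and Coq10a (0.06), which binds coenzyme Q in mitochondria. Their adjusted p in edgeR ran from 0.0722 to 0.133. Because they were chosen on the same 6 libraries for being like Gpx1, this is no separate observation. Of the other members Selenop was nearest to Gpx1 at 0.17, in place 764, then Msrb1 at 0.18, in place 1045. Gpx3 was farthest at 0.76.

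Around the members, the genes that regulate Selenop included 1 that passed in edgeR (1.49% of all tested genes did). The FoxO factors and HNF4A, with the coactivator PGC-1α, are known to activate the human SELENOP promoter in hepatoma cells, and the list of these regulators and of the receptors that take up selenoprotein P had 7 genes, 6 of them tested. Ppargc1a, which encodes PGC-1α, had 9.83, 10.7 and 11.7 CPM in the knockouts and 4.36, 4.34 and 5.50 CPM in the controls. Every knockout was above every control. Groups did not overlap in 2 of the 6 tested genes, against 25.2% of all tested genes. Ppargc1a rose by 1.18 ± 0.16 (log2, SE, edgeR adjusted p = 0.0131). Over all alternatives its adjusted p ran from 9.64e-06 to 0.0623, and it was 0.0623, 0.0582 and 0.0509 without knockout replicates 2 and 3 and control replicate 2. Foxo1 had a log2 fold change of 0.45 ± 0.15 (adjusted p = 0.154), and the kidney receptor gene Lrp2, at no more than 0.12 TPM in any library, had 1.23 ± 0.55 (adjusted p = 0.275). All 6 tested genes of the list had positive values, against 5822 of all 12173 tested genes. Their median was 0.41 beside -0.02 over all tested genes.

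For reference, RefSeq's promoter windows on GRCm38.p6, from 250 bases before to 50 after each annotated start, were searched on both strands for GTAAACA, a FoxO site, and TGACNNNGC, the core of the antioxidant response element bound by NRF2. The 10 genes had 17 windows of 300 bases. Of these, 1 window of Selenop (chr15:3270727-3271026) held a FoxO match, at position -24 from the start on the gene's strand, and 1 window of Txnrd1 (chr10:82858956-82859255) held an NRF2 match, at position -92 on the opposite strand. They are shown because they are the members' only matches, with the motif in capitals and 10 bases on either side, on the gene's strand. Over all 32851 windows of the same length, 3.65% held GTAAACA and 12.4% held TGACNNNGC.
Selenop, chr15:3270953-3270959: agagggcgagGTAAACAacagggctat
Txnrd1, chr10:82859114-82859122: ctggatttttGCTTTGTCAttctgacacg
A match is a description of the letters and does not show binding in these livers.

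Of the other selenoproteins, 10 of 14 were tested, and 2 passed in edgeR, Dio1 and Selenoo (1.49% of all tested genes did). Selenoo is the targeted gene, so its call was set by the design, and Dio1 is the only call besides it. Dio1, the deiodinase that activates thyroid hormone, had 108, 74.0 and 49.2 CPM in the knockouts and 13.2, 10.5 and 22.6 CPM in the controls. All knockouts were above all controls, and Dio1 rose by 2.32 ± 0.34 (log2, SE, edgeR adjusted p = 0.0150). Its adjusted p ran from 7.16e-11 to 0.0542 over all alternatives and was 0.0542 and 0.0509 without knockout replicate 2 and control replicate 2. Selenoo was the only one called lower in edgeR, while 5 of the 10, Selenoo included, had negative values. Selenok is a membrane protein of the endoplasmic reticulum. It had 32.6, 34.3 and 33.8 CPM in the knockouts and 70.9, 56.3 and 35.2 CPM in the controls, without overlap. Its log2 fold change was -0.69 ± 0.22 (edgeR adjusted p = 0.151), and its adjusted p ran from 0.0160 to 0.363 over all alternatives. Groups did not overlap in 3 of the 10 genes, Selenoo included (25.2% of all tested genes). The list's median was 0.02, also with Selenoo included. The difference between Dio1 and the 10 members in fold change was not tested.

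The machinery that makes and inserts selenocysteine had 10 tested genes and 0 that passed in edgeR or in DESeq2, with 1 at an unadjusted p under 0.05 (18.5% of all tested genes). Its smallest p belonged to Sephs1, a paralogue of selenophosphate synthetase, with a log2 fold change of 0.31 ± 0.12 (edgeR adjusted p = 0.206). Secisbp2l, a relative of the protein that binds the selenocysteine stem-loop, had 0.36 ± 0.17 (adjusted p = 0.285), and Sepsecs, the synthase that makes selenocysteine on its transfer RNA, had 0.30 ± 0.14 (adjusted p = 0.304). The median was 0.06, near the 0.09 of the members.

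Among 15 partners of the thioredoxin system 1 passed in edgeR (1.49% of all tested genes did), Txnip, which binds and inhibits thioredoxin. It had 236, 219.8 and 189 CPM in the knockouts and 81.0, 112 and 122 CPM in the controls. The groups did not overlap, as in 5 of the 15 genes (25.2% of all tested genes). Its log2 fold change was 1.03 ± 0.18 (SE, edgeR adjusted p = 0.0291). The adjusted p ran from 5.63e-06 to 0.132 over all alternatives, and it was 0.113, 0.132, 0.0761 and 0.0805 without knockout replicates 1, 2 and 3 and control replicate 2. Txn1, the cytosolic thioredoxin itself, had -0.36 ± 0.18 (adjusted p = 0.330) and Srxn1, which restores overoxidised peroxiredoxins, -0.41 ± 0.15 (adjusted p = 0.199). The median of the 15 was 0.07.

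Of 12 tested partners of the glutathione system 0 passed in edgeR, 2 had an unadjusted p under 0.05 (18.5% of all tested genes) and DESeq2 called 1 (5.26% of all), Gclc, the catalytic subunit of the first enzyme of glutathione synthesis. Gclc had 189, 167 and 153 CPM in the knockouts and 131, 117 and 111 CPM in the controls. The groups did not overlap, as in 4 of the 12 genes (25.2% of all tested genes). Its log2 fold change was 0.50 ± 0.14 (edgeR adjusted p = 0.106). Gpx7 had 0.64 ± 0.26 (adjusted p = 0.225) and Chac1, which degrades glutathione, 0.75 ± 0.36 (adjusted p = 0.304). The NRF2 targets other than the members share the tested genes Gclc, Gclm, Gsr and Srxn1 with the lists above. Of the 18 that were tested, 0 passed in edgeR and 6 had an unadjusted p under 0.05, against 18.5% of all tested genes. DESeq2 called 1 higher, Gclc, and 1 lower, Gsta1 (log2 fold change -1.71 ± 0.55, edgeR adjusted p = 0.150), against 5.26% of all genes. Their median was -0.05.

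Of 10 tested genes with a part in ferroptosis, for or against it, 0 passed in edgeR, while 5 had an unadjusted p under 0.05 (18.5% of all tested genes). DESeq2 called 1 higher and 1 lower (5.26% of all). Lpcat3, which puts polyunsaturated fatty acids into phospholipids, had 77.5, 94.7 and 82.7 CPM in the knockouts and 53.2, 45.0 and 58.4 CPM in the controls (log2 fold change 0.70 ± 0.15, edgeR adjusted p = 0.0524). Tfrc, the transferrin receptor, had 5.21, 6.80 and 6.88 CPM in the knockouts and 14.6, 8.89 and 14.2 CPM in the controls (-0.99 ± 0.22, adjusted p = 0.0606). Neither gene overlapped between the groups, as was so for 6 of the 10 genes (25.2% of all tested genes). Acsl4, which activates polyunsaturated fatty acids, had 0.59 ± 0.20 (adjusted p = 0.157), and the median of the 10 was 0.19.

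**Figure D5:**
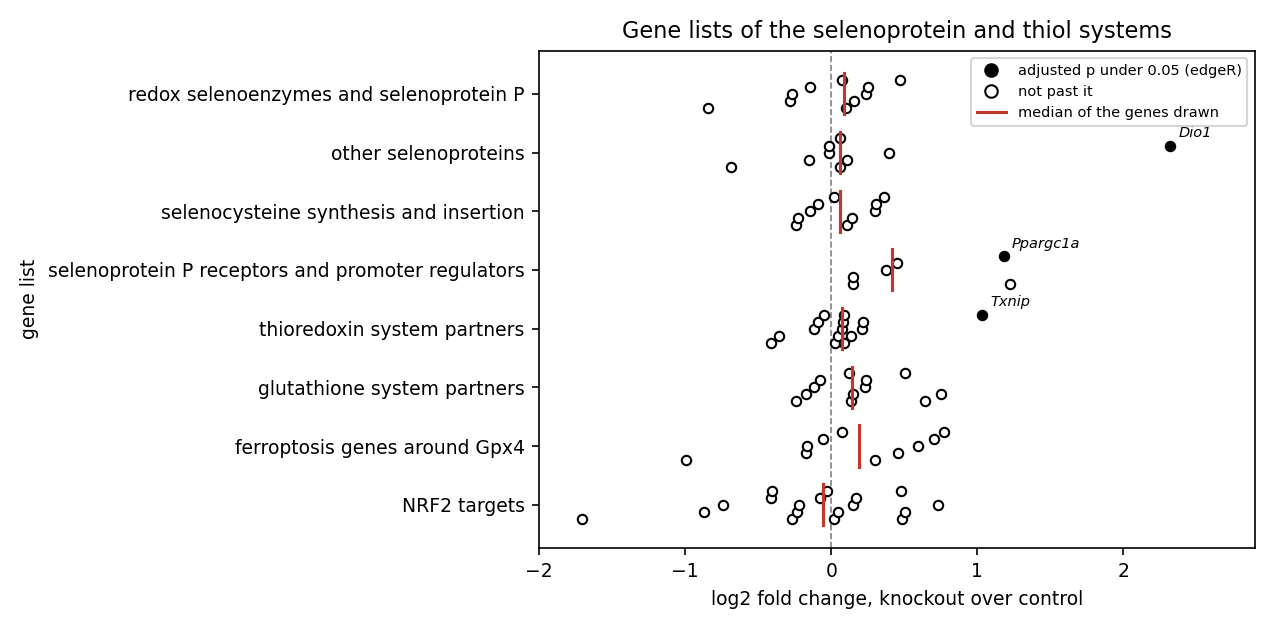
Log2 fold change, knockout over control, of each tested gene in the lists, with the list median as a red bar; filled points passed an adjusted p of 0.05 in edgeR. Selenoo, at -3.56, is not drawn and is left out of the median of its list; Dio1, Ppargc1a and Txnip are the only filled points, and none of the 10 members is filled.

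Markers of other liver cells were read beside these values, and their part in them was not tested. Counts of markers are to be read against 1.49% (edgeR), 18.5% (unadjusted) and 5.26% (DESeq2) of all genes. Fold changes were negative in 6351 of all 12173 tested genes, and groups did not overlap in 25.2% of single tested genes. Summed over 10 hepatocyte markers, the knockouts had 168838 to 194933 CPM and the controls 155026 to 195884 CPM. Of these markers 7 had positive and 3 negative fold changes. In edgeR and DESeq2 0 were called, and 1 had an unadjusted p under 0.05. The 11 Kupffer cell and macrophage markers summed to 488 to 554 CPM in knockouts and 543 to 792 CPM in controls. Of their fold changes 11 of 11 were negative, with 0 called in edgeR and 5 at an unadjusted p under 0.05. DESeq2 called 1 of them lower, C1qb (adjusted p = 0.0273). The 10 lymphocyte markers in the table summed to 8.81 to 13.7 CPM in knockouts and 17.8 to 25.5 CPM in controls, without overlap. All 8 that were tested were negative, with a median of -1.04, 0 called in edgeR and 5 at an unadjusted p under 0.05. DESeq2 called 1 lower, Ptprc (adjusted p = 0.0134). Of the sum, Ptprc gave 5.86, 6.74 and 5.80 CPM in the knockouts and 9.66, 9.56 and 11.9 CPM in the controls. Of 9 endothelial markers 7 had negative values and 1 passed in edgeR, Lyve1, lower by 1.15 ± 0.18 on the log2 scale (adjusted p = 0.0196). Its adjusted p ran from 1.39e-05 to 0.0971 over all alternatives, and it was 0.0909, 0.0971 and 0.0648 without knockout replicates 1 and 3 and control replicate 2. Stellate cell, cholangiocyte and red blood cell markers had 0 called in edgeR and in DESeq2, and overlapping sums. At an unadjusted p under 0.05 they had 1, 0 and 0. Fold changes were positive in 6 of 10, 1 of 5 and 5 of 5 tested markers of these lists. None of the listed markers in the table was at 0 in any library.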

How the data were processed

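Per the labels' protocols, poly(A) RNA was taken from TRIzol extracts of liver on oligo(dT) beads, and libraries from random-primed cDNA went through PCR. Per the submitters' processing notes, reads were handled with HISAT2, Bowtie2 and RSEM 1.3.1 on GRCm38; the sources used here do not give a strand setting. The deposited table of the series holds, per the file headers, estimated counts, FPKM and TPM of each library as the authors computed them, and the authors' DESeq2 output (log2 fold change, p-value, q-value). Its columns name the controls as wild type and were matched to the floxed controls of the labels by group and number.

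Estimated counts (4.55% to 4.98% of values per library were more than 0.01 from a whole number) were rounded. Genes were filtered with filterByExpr, scaled with TMM factors and tested for genotype, with no other term, by edgeR 4.0.16 (quasi-likelihood F test; R 4.3.3), with Benjamini-Hochberg adjustment over all 12173 genes at 0.05. Standard errors and 95% intervals were derived from the F statistic, whose variance is fitted over both groups and drawn toward the trend over all genes. CPM are TMM-scaled. The method was tested on simulated data. All 6 libraries were kept, since every pair differed by more than sampling noise (lowest chi-square over its degrees of freedom 18.9). Counting errors are Poisson errors only and leave out PCR duplication, since the labels name no molecular identifiers.

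Alternatives were RLE and upper-quartile scaling, no low-count filter, at least 1 CPM in 3 libraries, a replicate block, the DESeq2 1.42.0 Wald test, voom, limma 3.58.1 on log2(FPKM + 1), log2(FPKM + 0.1) and log2(TPM + 1), removal of each library's length and GC trend, an adjusted p of 0.1, and each library left out. Lengths and GC content came from GENCODE M21 transcripts for 98.1% of tested genes. The members and the gene lists were chosen with earlier results of these data known. The genes named were all members, Selenoo and every gene of the lists called in edgeR or DESeq2. Also named were the 3 with the smallest p in each list other than cell type markers. So were the 5 nearest to Gpx1 with a mean log2 CPM of at least 3. Selenocysteine codons were read from GENCODE M21 (GRCm38) in the principal transcript of each gene. The protein sequences planned for this purpose were not used here. Promoters are RefSeq's on GRCm38.p6.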

Additional observations from a re-analysis of the deposited data

How the results depend on the processing

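Of all tested genes 181 were called; this was 330 with no low-count filter, 87 with the replicate block, 634 with DESeq2, 110 with limma on log2(FPKM + 1), 79 on log2(TPM + 1), 274 with the length and GC trend removed, 513 at an adjusted p of 0.1, and 43 to 668 with each library left out. Of the 10 members 0 were called; this was 1 with DESeq2 (Gpx1) and 0 to 1 with each library left out (Gpx3, without control replicate 3), and 0 under each of the other alternatives. Gpx1 was past the threshold with DESeq2 (log2 fold change 0.48), and its values with each library left out were 0.41 to 0.52. Gpx3 ran from -1.11 to -0.56 and was past the threshold at -1.11. The sign of Gpx4 turned to 0.023 with the length and GC trend removed, and its values with each library left out were -0.29 to 0.023. Selenow ran from -0.46 to 0.0086, Txnrd1 from -0.025 to 0.17 and Txnrd3 from -0.0012 to 0.20. Selenop (0.10 to 0.36), Selenoh (0.18 to 0.36), Msrb1 (0.13 to 0.18) and Txnrd2 (-0.41 to -0.10) kept their sign. The cause of these turns was not tested.

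The lists' counts of called genes moved as follows. Other selenoproteins, with the targeted Selenoo included, had 2, and 1 to 4 with each library left out. The Selenop regulators and receptors had 1, but 0 with limma on log2(TPM + 1) and 0 to 1 with each library left out. Thioredoxin partners had 1, but 0 with the replicate block, with limma on log2(FPKM + 1), log2(FPKM + 0.1) and log2(TPM + 1), and 0 to 1 with each library left out. Glutathione partners had 0, but 1 with DESeq2. Ferroptosis genes had 0, but 2 with no low-count filter, DESeq2, the length and GC trend removed and an adjusted p of 0.1, and 0 to 2 with each library left out. NRF2 targets had 0, but 2 with DESeq2 and 0 to 1 with each library left out. Kupffer markers had 0, but 1 with DESeq2 and 0 to 2; endothelial markers 1, and 0 to 1; lymphocyte markers 0, but 1 with upper-quartile scaling, no low-count filter, DESeq2 and the trend removed, 2 at an adjusted p of 0.1, and 0 to 1 with each library left out. In the fit with the replicate number as a block Gpx1 had an adjusted p of 0.270, and no member was called. Libraries with the same number did not deviate together (r of -0.16, -0.08 and -0.08 across 12173 genes). Deviations from a mean of 3 libraries are tied to each other, so this cannot decide whether the numbers pair the samples.

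With 3 libraries per group the intervals of the 8 members other than Gpx1 and Gpx3 include 0, and a p that misses the threshold does not show that a level did not differ. Txnrd3 and Selenoh had 73 to 114 counts per library, and their counting errors of 9.37% to 11.7% were close to the spread between libraries.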
